A study of Danio rerio with 6 samples.

Results

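The genes described here are 10 transcription factors linked to branchiomotor neurons, the hindbrain neurons that drive pharyngeal arch muscles. Several of them also act in other neurons, as described below. The 10 were picked by symbol, with earlier results of these data known. They comprise 4 T-box genes (tbx20, tbx2a, tbx2b and tbx3a), 3 Phox2 genes (phox2a, phox2ba and phox2bb) and 3 Islet genes (isl1a, isl2a and isl2b). They are 10 of the 32520 genes in the count tables, and all 10 were among the 17270 with enough counts to test. RNA was sequenced from 6 libraries of sorted zebrafish cells labelled as vagus motor neurons, 3 per group. All embryos carried Tg(isl1:Kaede), in which an isl1 promoter drives the fluorescent protein Kaede, and every group was reared in 0.2 mM PTU, an inhibitor of pigment formation. The treated group (RA replicates 6, 9 and 12) received 50 nM retinoic acid dissolved in DMSO from 24 hours post fertilization (hpf), and the control group (DMSO replicates 1, 4 and 10) received the same volume of DMSO. At 38 hpf the posterior hindbrain was dissected, and 4500 to 10000 Kaede-positive cells negative for the dead-cell dye DAPI were collected per library. The gate therefore used a transgene driven by one of the gene families described here. The labels do not say whether the libraries came from separate clutches, so p-values measure the spread between these libraries, which may be technical.

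Branchiomotor neurons differ from spinal motor neurons in the factors that specify them. In mouse, Isl1 is needed for motor neurons in general and Tbx20 for the migration of facial branchiomotor neurons. Tbx2 and Tbx3 are related T-box proteins that act mainly as transcriptional repressors. Retinoic acid, made from vitamin A, gives hindbrain cells their position along the head-to-tail axis, and the comparison asks how an added dose alters expression in these neurons.

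The libraries held 15971653 to 23411427 counted fragments. Markers of the labelled cell type were present in every library. The acetylcholine-synthesizing enzyme gene chata lay at 39.3 to 68.2 counts-per-million (CPM, of a library's TMM-scaled total), the vesicular acetylcholine transporter gene slc18a3a at 308 to 561 CPM, and phox2bb at 1901 to 3092 CPM. Of 5 spinal somatic motor neuron markers, lhx3 was at most 1.66 CPM and mnx1 at most 19.3 CPM, but lhx4 was at 72.2 to 238 CPM. Tbx20 is also a heart gene. Of 7 matched heart markers, the heart muscle genes myl7, tnnt2a and myh6 had 1 count each over all 6 libraries, while hand2, which is also a gene of noradrenergic neurons, was at 29.3 to 92.5 CPM and gata5 at most 4.91 CPM. Progenitor and cell cycle genes were also abundant: 9 progenitor and glia markers summed to 2537 to 2691 CPM in DMSO and 1848 to 3206 in RA.

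Retinoic acid lowered 3 of the 10 factors, all of them T-box genes: tbx20 fell 3.14-fold, tbx2a 2.66-fold and tbx3a 2.46-fold (adjusted p = 0.00482, 0.0425 and 0.00796, edgeR quasi-likelihood test). The other 7, among them tbx2b and all Phox2 and Islet genes, did not pass the threshold of 0.05. Over all tested genes, 0.799% were called in either direction and 0.353% were called lower in RA. All 10 fold changes were below 0 on the log2 scale, with a median of -0.63, where all tested genes had a median of 0.02 and 8190 of 17270 below 0. For 7 of the 10, every RA library lay below every DMSO library, as did 7.7% of all tested genes. An unadjusted p under 0.05 was reached by 7 of the 10 and by 10.2% of all tested genes. Because the 10 were chosen with earlier results of these data known, these shares describe them and do not test them as a set. Summed over the 10 genes, DMSO libraries held 6641 to 8806 CPM and RA libraries 4600 to 5613 CPM. In sorted bulk samples, fewer cells of a type and less RNA per cell cannot be told apart. Markers of other hindbrain neurons, such as pax2a and en1b, were lower too: their 10 genes summed to 277 to 421 CPM in DMSO and 151 to 276 in RA, although 0 of the 10 were called by edgeR and 3 had an unadjusted p under 0.05 (10.2% over all genes). Whether a different mix of sorted cells had a part in the results was not tested.

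**Figure D1:**
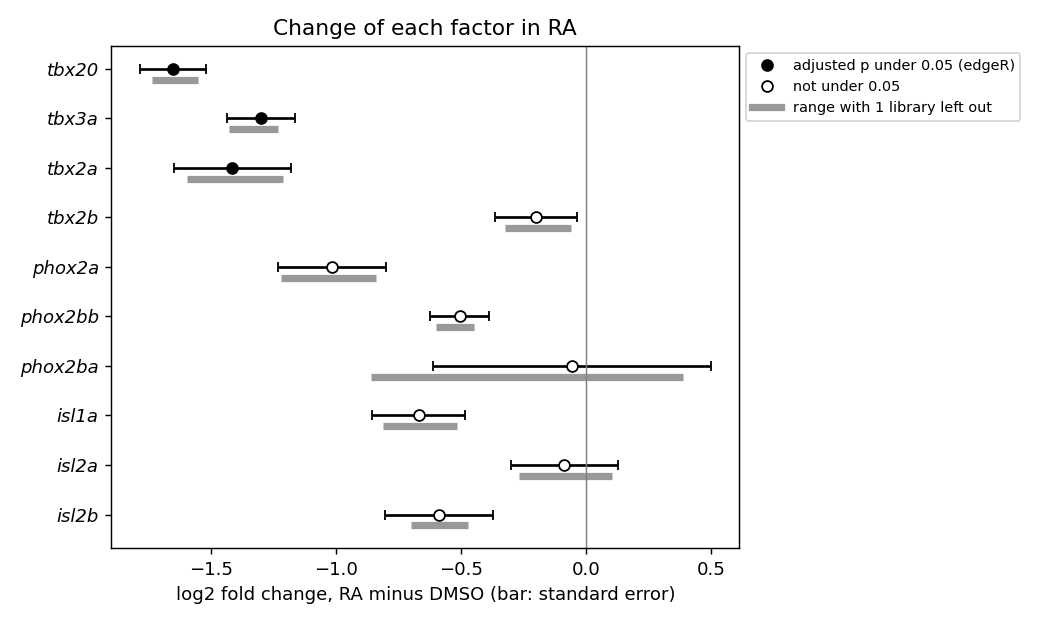
Log2 fold change (RA minus DMSO) of the 10 factors, with standard errors from the edgeR fit; filled points passed an adjusted p of 0.05. The 3 filled points, tbx20, tbx2a and tbx3a, lie between -1.65 and -1.30, and all 10 lie below 0.

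Tbx20 (ENSDARG00000005150, chr16:42509011-42523744 of GRCz11, minus strand, 2126 exonic bases) was at 242, 206 and 188 CPM in DMSO replicates 1, 4 and 10. It was at 64.0, 68.8 and 69.9 CPM in RA replicates 6, 9 and 12. The groups were far apart, and the lowest DMSO library was well over the highest RA library. The mean fell from 212 ± 27.5 CPM to 67.6 ± 3.15 CPM (SD, n = 3), a log2 fold change of -1.65 (SE 0.13). By p-value tbx20 ranked 5 of all 17270 tested genes. It was below the threshold under each of the 17 alternative settings run, with log2 fold changes of -1.73 to -1.55. The RA libraries were close to one another, with a coefficient of variation of 4.65% against 13.0% in DMSO, and counting error alone gives a coefficient of at most 3.12% in a library.

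Tbx3a (chr5:72316803-72324371, minus strand, 3872 exonic bases) belongs to the same T-box subfamily as the tbx2 genes. It was at 341, 298 and 340.3 CPM in DMSO and at 124, 154 and 120.2 in RA. No RA library came near the lowest DMSO library. The mean fell from 327 ± 24.5 to 133 ± 18.7 CPM (SD, n = 3), a log2 fold change of -1.30 (SE 0.14). Its call was lost on leaving out any 1 of the DMSO libraries (adjusted p = 0.0609 to 0.0632, edgeR), with the log2 fold change always at -1.23 or lower over all alternatives.

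Tbx2a (chr5:56504717-56513825, minus strand, 5470 exonic bases) is one of a pair of zebrafish tbx2 genes. It was at 97.2, 63.5 and 69.1 CPM in DMSO and at 35.6, 21.7 and 29.0 in RA, again without overlap. The mean fell from 76.6 ± 18.1 to 28.8 ± 6.94 CPM (SD, n = 3), a log2 fold change of -1.41 (SE 0.23). This was the weakest of the 3 calls: it was lost when DMSO replicate 1, 4 or 10 or RA replicate 6 or 12 was left out (edgeR adjusted p = 0.0551 to 0.155). Of its exonic bases, 2328 (42.6%) are shared with si:ch211-199d18.3, annotated on the opposite strand. Counting ignored strand and left out fragments assigned to more than 1 gene, so the level of tbx2a can be understated. The other gene, si:ch211-199d18.3, had 0 counts in all 6 libraries. Fragments in the shared bases were left out for it too, so this 0 does not show that it was silent.

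**Figure D2:**
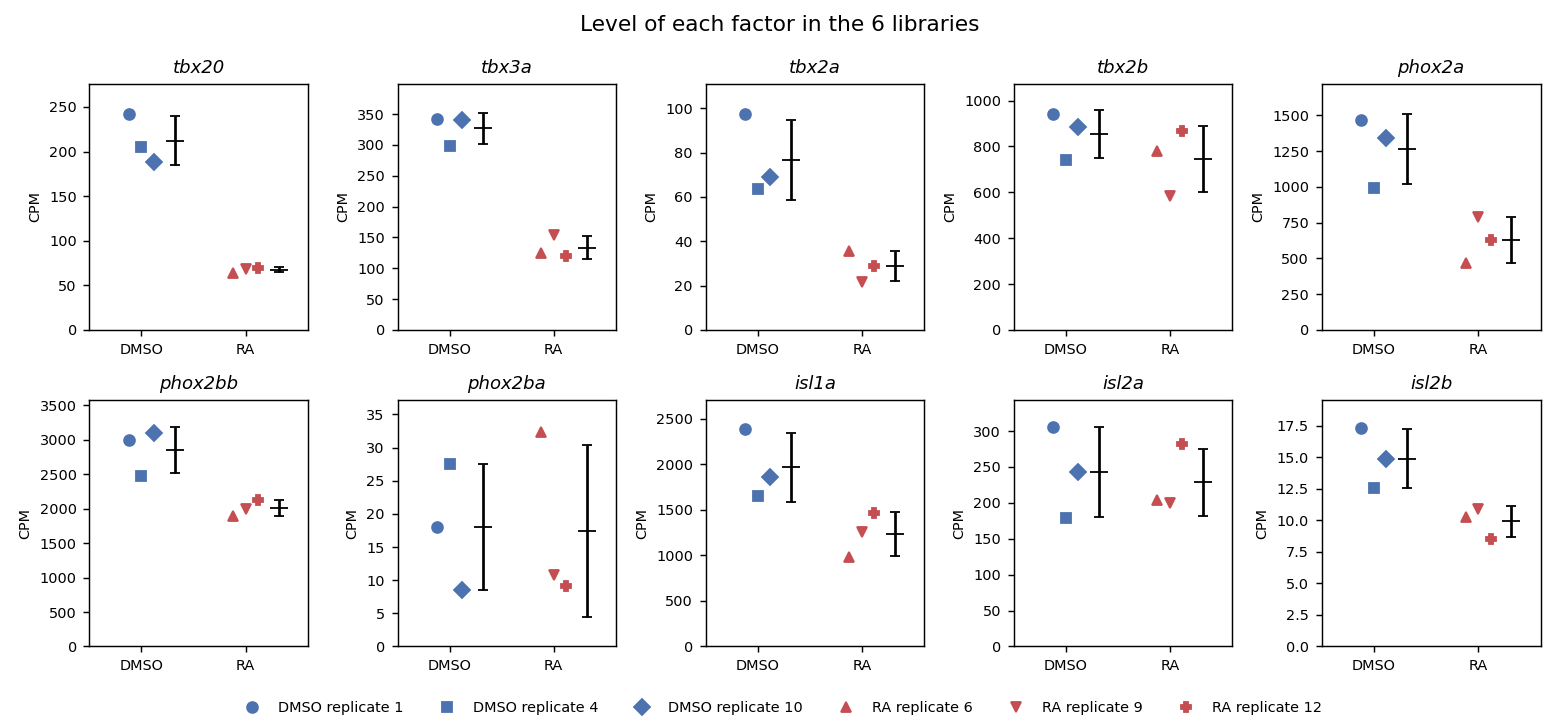
CPM of each factor in every library, with mean ± SD per group (n = 3) and each axis starting at 0. DMSO and RA points are apart for tbx20, tbx3a, tbx2a, phox2a, phox2bb, isl1a and isl2b, and overlap for tbx2b, phox2ba and isl2a.

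Tbx2b (chr15:27364394-27371340, plus strand, 2616 exonic bases), the other tbx2 gene, had the highest level per kilobase of the 4 T-box genes. It was at 940.3, 739 and 883 CPM in DMSO and at 779.5, 586 and 865 in RA. The groups overlapped: RA replicates 6 and 12 lay above DMSO replicate 4. The means were 854 ± 103 and 744 ± 143 CPM (SD, n = 3), and the log2 fold change was -0.20 (SE 0.16; adjusted p = 0.817, edgeR). The T-box genes thus had changes of unlike size, and the differences were tested by refitting all genes with libraries scaled by the count of a reference gene, so that a gene's fold change becomes its change minus that of the reference. This test was added after the values were seen and covered 12 pairs, with p-values adjusted over all 17270 genes. The change of tbx20 was lower than that of tbx2b by 1.42 on the log2 scale (SE 0.24, edgeR adjusted p = 0.0254), where 0.104% of all genes were called lower than tbx2b. Without DMSO replicate 1, 4 or 10 or RA replicate 6 the difference no longer passed, and over the 6 fits that leave out 1 library it was -1.62 to -1.32 (adjusted p up to 0.204). For tbx2a the difference from tbx2b was -1.20 (SE 0.24, edgeR adjusted p = 0.0525) and for tbx3a -1.04 (SE 0.26, edgeR adjusted p = 0.149), so neither passed. Within the tbx2 pair, tbx2a gave 9.37%, 7.91% and 7.26% of the summed counts in DMSO and 4.37%, 3.58% and 3.24% in RA. The share was lower in every RA library, with an exact permutation p of 0.1, the smallest that 3 against 3 libraries can give. These shares are of counts not scaled by exon length. Per exon length, tbx2a gave 4.09% ± 0.57 in DMSO and 1.82% ± 0.29 in RA (SD, n = 3). Both kinds of share can be understated, because part of the tbx2a exons is shared with another gene.

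Phox2bb (chr14:17064126-17072736, minus strand, 4422 exonic bases) had the most counts of the set, though isl1a was higher per kilobase in DMSO. It was at 2994, 2472 and 3092 CPM in DMSO and at 1901, 1999 and 2133 in RA. The groups did not overlap, with means of 2853 ± 333 and 2011 ± 117 CPM (SD, n = 3). The log2 fold change of -0.50 (SE 0.12) did not pass (edgeR adjusted p = 0.129). DESeq2 did call it (adjusted p = 0.0144), and DESeq2 called 3.89% of all tested genes.

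Phox2a (chr15:47440477-47449248, plus strand, 3891 exonic bases), which in mouse acts in oculomotor, trochlear and noradrenergic neurons, was at 1465, 993 and 1344 CPM in DMSO. In RA it was at 465, 787 and 629 CPM. Every RA library was lower than every DMSO library, but libraries within a group were spread widely. The means were 1267 ± 245 and 627 ± 161 CPM (SD, n = 3), and the log2 fold change of -1.01 (SE 0.22) missed the threshold (edgeR adjusted p = 0.0936). It passed in 4 of the 17 alternatives: without a filter on low counts (edgeR adjusted p = 0.0274), with DESeq2 (0.0006), with limma-voom quality weights (0.0293) and without RA replicate 9 (edgeR, 0.04). Of all tested genes, 1.02% were called without the filter and 2.28% with quality weights. Set against phox2bb in the same fit, the change of phox2a was lower by 0.51 on the log2 scale (SE 0.19, edgeR adjusted p = 0.0918). Of the summed phox2a and phox2bb counts, phox2a gave 30.6% ± 2.12 in DMSO and 23.6% ± 4.35 in RA (SD, n = 3, exact permutation p = 0.1).

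Phox2ba (chr1:19074326-19079957, minus strand, 872 exonic bases) was low and uneven. It was at 18.0, 27.6 and 8.58 CPM in DMSO and at 32.4, 10.8 and 9.06 in RA. The groups overlapped fully, and RA replicate 6 was the highest library of all. The log2 fold change of -0.06 (SE 0.55; adjusted p = 0.993, edgeR) turned positive in 4 of the 16 alternatives that gave a value, so no direction can be given.

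Isl1a (chr5:40728613-40734045, minus strand, 2303 exonic bases) encodes a LIM-homeodomain factor of postmitotic motor neurons and several sensory neurons. It was at 2385, 1649.9 and 1857 CPM in DMSO and at 985, 1256 and 1466 in RA. The highest RA library lay below the lowest DMSO library. The means were 1964 ± 379 and 1236 ± 241 CPM (SD, n = 3), and the log2 fold change of -0.67 (SE 0.18) did not pass (edgeR adjusted p = 0.196), though DESeq2 called it (adjusted p = 0.0294). Cells were sorted on an isl1-driven reporter, and the part of that gate in the level of isl1a was not tested. The change of isl1a differed from that of phox2bb by -0.17 (SE 0.16, edgeR adjusted p = 0.426). The second zebrafish isl1 gene, isl1b, had 11 counts in all 6 libraries and was not tested.

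Isl2a (chr25:32746014-32751982, minus strand, 1686 exonic bases) is a paralog of isl1a, and its family is known in zebrafish from primary motor and sensory neurons. It was at 305, 179 and 243 CPM in DMSO and at 204, 200.2 and 282 in RA. The groups overlapped, with means of 243 ± 62.8 and 229 ± 46.2 CPM (SD, n = 3) and a log2 fold change of -0.09 (SE 0.22; adjusted p = 0.965, edgeR). That value turned positive in 2 of the 17 alternatives. Among the summed isl1a and isl2a counts, isl2a gave 11.3%, 9.81% and 11.6% in DMSO and 17.1%, 13.7% and 16.1% in RA. The share was higher in all 3 RA libraries (exact permutation p = 0.1), and the fitted difference between the changes was 0.60 (SE 0.26, edgeR adjusted p = 0.104), in a fit that called 4.59% of all genes. Isl2b (chr7:29992889-29997444, plus strand, 2181 exonic bases) had the lowest level per kilobase of the 3 Islet genes and was at 17.3, 12.6 and 14.8 CPM in DMSO and 10.3, 10.9 and 8.55 in RA. The groups did not overlap, but the log2 fold change of -0.59 (SE 0.21) did not pass (edgeR adjusted p = 0.369).

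Measured against phox2bb in the same fit, 2 T-box genes had lower changes. The difference was -1.16 for tbx20 (SE 0.17, edgeR adjusted p = 0.0105) and -0.79 for tbx3a (SE 0.16, edgeR adjusted p = 0.0346), where 0.249% of all genes were called lower than phox2bb. For tbx20 it was -1.29 to -1.08 in the 6 fits that leave out 1 library and missed the threshold without DMSO replicate 1 (adjusted p = 0.0697). For tbx3a it no longer passed without DMSO replicate 1 or 10 or RA replicate 6 or 12 (adjusted p up to 0.160). The difference was -0.90 for tbx2a (SE 0.24, edgeR adjusted p = 0.064) and 0.30 for tbx2b (SE 0.16, edgeR adjusted p = 0.181). As plain counts, there were 8.09, 8.32 and 6.09 tbx20 fragments per 100 phox2bb fragments in DMSO. In RA there were 3.37, 3.44 and 3.28.

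Ratios were also taken to cholinergic genes, whose libraries overlapped between the groups. Of 5 such genes 0 were called by edgeR, 0 had an unadjusted p under 0.05 (10.2% over all genes), and their median log2 fold change was -0.06. Counts of chata, slc18a3a and the choline transporter gene slc5a7a were summed in each library, and each factor was expressed per 100 of them. Tbx20 was at 34.8, 42.3 and 43.6 per 100 in DMSO and at 11.7, 16.4 and 9.73 in RA. The log2 difference of -1.70 was close to the library-scaled value. Tbx3a was at 63.1 ± 15.0 per 100 in DMSO and 25.4 ± 10.3 in RA, tbx2a at 14.4 ± 1.51 and 5.24 ± 1.23, phox2a at 242 ± 60.2 and 120.1 ± 58.8, and isl1a at 371 ± 51.5 and 228 ± 63.6 (SD, n = 3). These 5 genes did not overlap between groups, and each had an exact permutation p of 0.1, the smallest possible. The share of all genes without overlap on this ratio was not computed, so the count of 5 has no background to be set against. Phox2bb was at 552 ± 148 and 374 ± 93.1 per 100 (exact p = 0.2) and tbx2b at 164 ± 36.2 and 134 ± 11.9 (exact p = 0.3), both with overlapping groups. When all libraries were scaled by the cholinergic counts and all genes refitted, tbx20 and tbx2a passed and tbx3a did not (edgeR adjusted p = 0.121); 1.14% of all genes were then called.

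**Figure D3:**
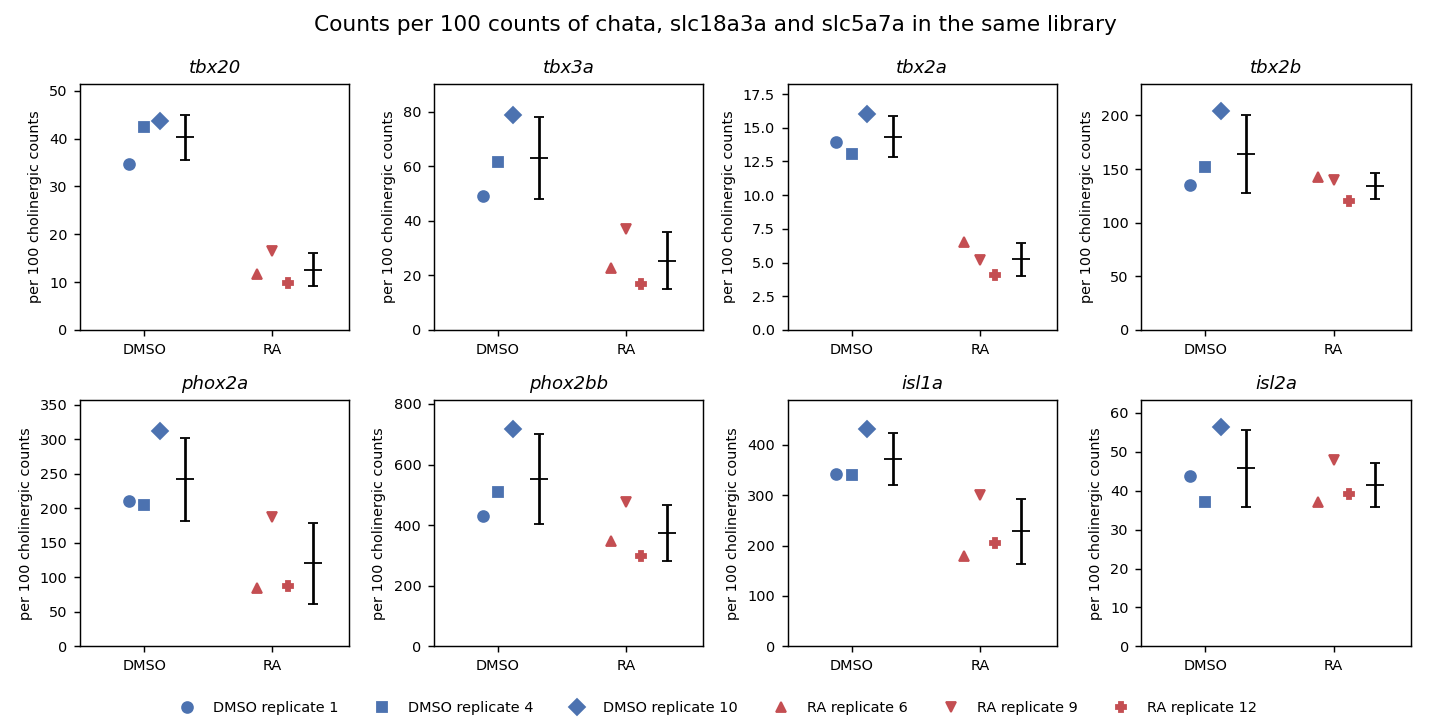
Counts of 8 factors per 100 summed chata, slc18a3a and slc5a7a counts in the same library, with mean ± SD per group (n = 3). RA points lie under all DMSO points for tbx20, tbx3a, tbx2a, phox2a and isl1a, and overlap with them for tbx2b, phox2bb and isl2a.

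Between genes, levels were compared as CPM per kilobase of annotated exon. For tbx2a all 5470 exonic bases were used, although 2328 are shared with si:ch211-199d18.3, where fragments can be left out of the counts. Its level per kilobase can thus be understated, and its place and overlaps in the order are uncertain in both groups. In DMSO the order was isl1a (853 ± 165), phox2bb (645 ± 75.4), tbx2b (327 ± 39.5), phox2a (326 ± 63.1), isl2a (144 ± 37.3), tbx20 (99.7 ± 13.0), tbx3a (84.4 ± 6.33), phox2ba (20.7 ± 10.9), tbx2a (14.0 ± 3.31) and isl2b (6.84 ± 1.09) (SD, n = 3). Neighbours whose ranges over the libraries overlapped were tbx2b with phox2a, isl2a with tbx20, and phox2ba with tbx2a. Compared within each library, isl2a was above tbx20 in all 3 DMSO libraries. In RA the leading 5 stood in the same order, from isl1a at 537 ± 105 to isl2a at 136 ± 27.4. Tbx3a (34.3 ± 4.82) and tbx20 (31.8 ± 1.48) changed places, but their libraries overlapped in RA. The libraries of isl1a and phox2bb, phox2a and isl2a, tbx20 and phox2ba, and tbx2a and isl2b also overlapped in RA. The order therefore changed little, while tbx2b, level with phox2a in DMSO, stood above it in all 3 RA libraries.

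**Figure D4:**
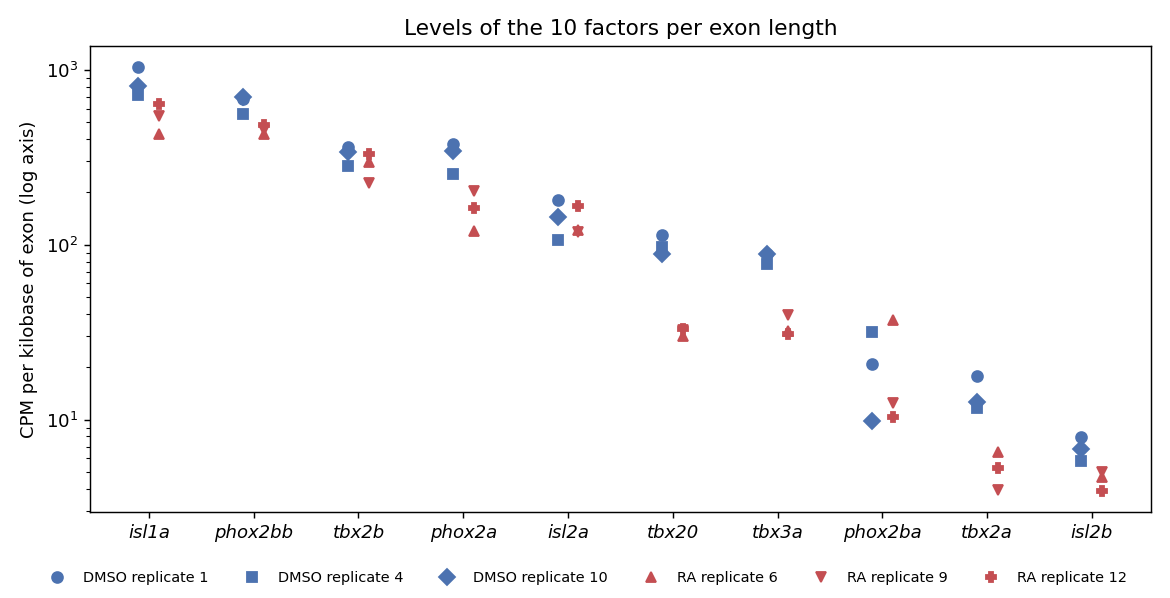
CPM per kilobase of exon for the 10 factors on a log axis, 1 point per library and group. The order runs from isl1a down to isl2b in both groups, and the T-box genes tbx20 and tbx3a sit close together in each. The level of tbx2a can be understated, because part of its exons is shared with another gene.

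Genes acting before, beside and after these factors were examined as lists. Of 9 genes listed as progenitor factors of branchiomotor neurons, 2 passed, in opposite directions, where 0.799% of all tested genes passed. Nkx6.2, a homeodomain factor of ventral progenitors, was at 66.7, 67.7 and 77.9 CPM in DMSO and 9.96, 26.4 and 17.0 in RA (log2 fold change -1.99, SE 0.32, edgeR adjusted p = 0.0362). Olig2, which specifies somatic motor neuron and oligodendrocyte progenitors, was at 23.7, 15.6 and 10.4 CPM in DMSO and 91.4, 88.7 and 52.3 in RA (log2 fold change 2.22, SE 0.33, edgeR adjusted p = 0.0285). The most abundant gene of the list, nkx6.1, had a log2 fold change of -0.16 (edgeR adjusted p = 0.858). Most of these progenitor genes leaned downward: 7 of the 9 changes were below 0 and 2 above, and the list's median was -0.50. In edgeR, 4 of the 9 had an unadjusted p under 0.05 (10.2% over all genes). Of 8 motor neuron differentiation factors, 0 passed in edgeR and 3 had an unadjusted p under 0.05 (10.2% over all genes). All 8 log2 fold changes were below 0, with a median of -0.56, including the 3 most abundant, onecut1 at -0.41, ebf2 at -0.05 and ebf3a at -0.68.

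LIM-homeodomain proteins such as the Islet factors act in complexes with Ldb proteins. Among 9 tested partners, 1 was called higher and 1 lower, where 0.799% of all tested genes were called. Ssbp3a, which encodes an Ldb-binding cofactor, rose from 25.4 ± 1.08 to 59.7 ± 12.0 CPM (log2 fold change 1.23, SE 0.18, edgeR adjusted p = 0.0272). Its far more abundant paralog ssbp3b was lower in RA, at 1046 ± 25.4 CPM in DMSO and 859 ± 83.3 in RA. That change did not pass (log2 fold change -0.28, SE 0.11, edgeR adjusted p = 0.405). Lmo4b, a LIM-only gene whose product competes for Ldb binding, fell from 459 ± 76.3 to 178 ± 34.9 CPM (log2 fold change -1.37, SE 0.18, edgeR adjusted p = 0.0185). Its less abundant paralog lmo4a was higher in RA, at 25.8 ± 5.02 CPM in DMSO and 42.7 ± 15.1 in RA. That change did not pass (log2 fold change 0.73, SE 0.27, edgeR adjusted p = 0.375). Ldb1a itself had a log2 fold change of -0.12 (edgeR adjusted p = 0.818). The list's median was -0.12, and 4 of 9 were higher.

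Other members of the same families were examined in the same fit, which called 0.799% of all tested genes. Of 19 matched T-box genes outside the set, 10 had enough counts to test, 6 of them higher and 4 lower in RA, with a median of 0.18. Only tbx15 was called, at 19.8, 35.7 and 27.0 CPM in DMSO and 4.61, 9.55 and 8.05 in RA (log2 fold change -1.89, SE 0.33, edgeR adjusted p = 0.0478). Tbx5b was at 1.56 to 2.78 CPM in DMSO and 6.56 to 37.2 in RA (log2 fold change 3.40, SE 0.60, edgeR adjusted p = 0.0514). Among 11 tested LIM-homeodomain genes outside the set, lhx1b alone was called, rising from 73.4 ± 5.70 to 128 ± 4.06 CPM (log2 fold change 0.80, SE 0.12, edgeR adjusted p = 0.0272). Lhx4, found with Lhx3 in spinal motor neurons, was at 189 to 238 CPM in DMSO and 72.2 to 133 in RA (log2 fold change -1.03, SE 0.22, edgeR adjusted p = 0.0903). The spinal gene mnx1 was at 3.76 to 5.32 CPM in DMSO and 8.84 to 19.3 in RA (log2 fold change 1.68, SE 0.33, edgeR adjusted p = 0.0768).

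Facial branchiomotor neurons need planar cell polarity genes to migrate. Of 12 such genes 0 were called by edgeR and 3 had an unadjusted p under 0.05 (10.2% over all genes), with 6 higher, 6 lower and a median of -0.07. Prickle1b, the fourth most abundant of the list, was at 159, 159 and 179.8 CPM in DMSO and 53.2, 96.1 and 89.3 in RA (log2 fold change -1.06, SE 0.21, edgeR adjusted p = 0.0817). Each of the 7 called genes of these and the marker lists, nkx6.2, olig2, ssbp3a, lmo4b, tbx15, lhx1b and gfap, lost its call when any 1 DMSO library was left out. Their edgeR adjusted p-values in the fits that lost them were 0.0641 to 0.208.

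**Figure D5:**
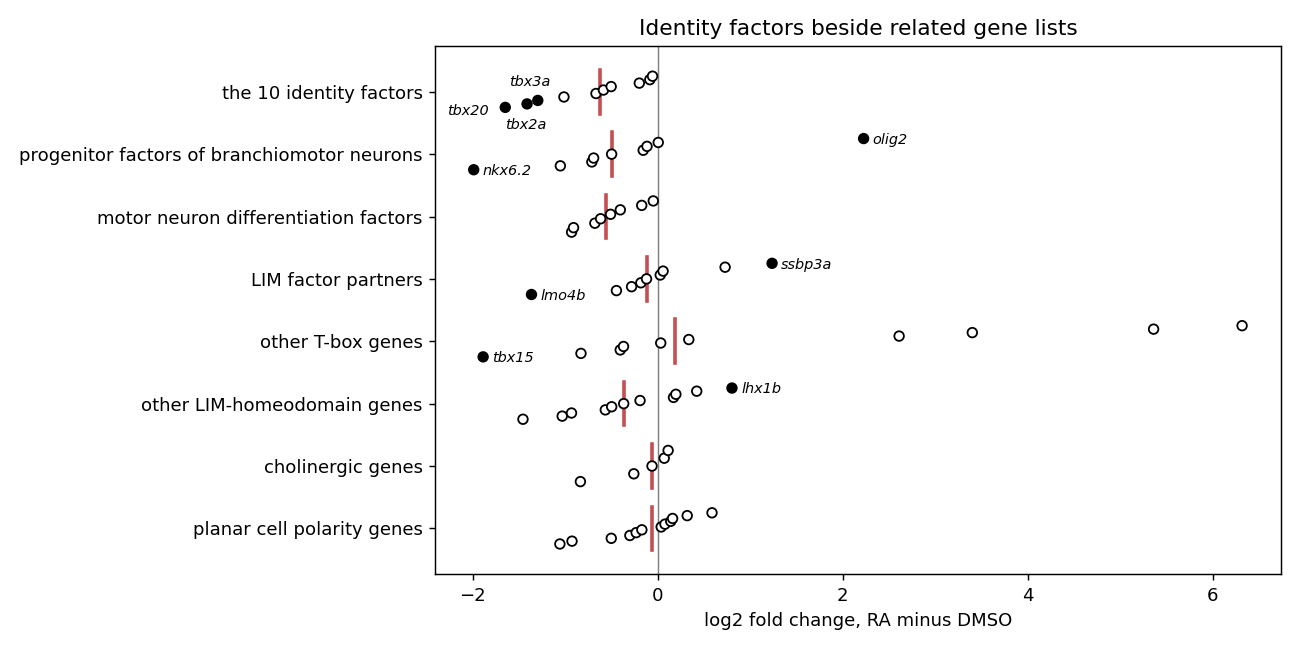
Log2 fold change (RA minus DMSO) of the 10 factors and of 7 related gene lists; each point is a tested gene, filled where the edgeR adjusted p was under 0.05, and red bars are list medians. The 10 factors have the lowest median, -0.63, and other T-box genes range from -1.89 to 6.32. The 6.32 is tbx21, near 0 in DMSO (at most 0.15 CPM) and at 1.25 to 8.47 CPM in RA. It was not called (SE 1.17, edgeR adjusted p = 0.0612).

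Likeness over the 6 libraries was described by Pearson's r of log2 CPM, among 9843 genes with a mean of at least 10 CPM. The points of each r share their libraries and group difference. Tbx20 resembled tbx3a (r = 0.976) and tbx2a (0.940) more than tbx2b (0.489), and was above 0.95 with 67 genes (0.681%). Likeness was not limited to T-box genes: r was 0.913 with phox2bb, 0.900 with phox2a, 0.881 with isl2b and 0.875 with isl1a. With isl2a it was 0.204 and with phox2ba 0.095. Genes called most like a factor below are the 5 of highest r after some kinds of gene were skipped. Skipped were genes with a clone name, no symbol, a symbol ending in a point and number, or a symbol kept by another identifier. For tbx20 the 5 were cux2b, mtus1b, rims4, dusp8a and plpp7a (r = 0.986 to 0.992), none of which passed in edgeR. Tbx3a, added to this description after its values were seen, was most like nefmb, a neurofilament gene (r = 0.997), which fell from 497 to 149 CPM (log2 fold change -1.74, edgeR adjusted p = 0.0053). It was followed by rims4, slc38a3b, pard6a and MMP15, of which pard6a fell too (log2 fold change -1.38, edgeR adjusted p = 0.0187). Phox2a was most like st8sia2, eif4g2a, slit3, eya1 and pcdh7a (r = 0.982 to 0.995), with 0 called in edgeR. Phox2bb was most like gng2, dap, tmem120aa, lypd6b and gas7a (r = 0.985 to 0.993), of which lypd6b fell (log2 fold change -1.07, edgeR adjusted p = 0.0385). For isl1a the list was nlk1, ppp3r1b, id4, rab40c and als2b (r = 0.975 to 0.986), with 0 called in edgeR.

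Markers of other cells that the gate could hold were measured beside these results. Gfap, a radial glia gene, rose from 69.6 ± 9.45 to 139 ± 20.9 CPM (log2 fold change 1.00, SE 0.16, edgeR adjusted p = 0.0352). It was the only called gene of 9 progenitor and glia markers, where 0.799% of all tested genes were called. Directions in this list were mixed: 6 of the 9 rose and 3 fell. Fabp7a, the list's most abundant gene in DMSO, went down, from 864 ± 157 to 592 ± 170 CPM. That change did not pass (log2 fold change -0.54, SE 0.21, edgeR adjusted p = 0.422). Cell cycle markers (8 genes) summed to 1353 to 2393 CPM in DMSO and 1810 to 2307 in RA. Cranial sensory markers (17 matched, 14 tested) summed over the matched genes to 1225 to 1688 CPM in DMSO and 1066 to 1324 CPM in RA. Of the 14 tested, 11 were lower in RA, with 0 called by edgeR and 3 at an unadjusted p under 0.05 (10.2% over all genes). Noradrenergic and visceral sensory markers (9 matched, 8 tested), listed for other Phox2 neurons, summed over the matched genes to 371 to 482 CPM in DMSO and 301 to 415 in RA. The largest parts of that sum in DMSO were tfap2a (mean 174 CPM), lmx1bb (105) and hand2 (71.1). Of the 8 tested, 6 were lower in RA, 0 were called by edgeR and 3 had an unadjusted p under 0.05 (10.2% over all genes). In RA replicate 9, pigment genes stood out, with tyrp1b at 306 CPM against at most 51.0 CPM in any other library. Epidermis markers (5 genes) summed to 40.5 to 310 CPM in DMSO and 34.8 to 678 in RA, with krt4 at 542 CPM in RA replicate 9, 217 CPM in DMSO replicate 1 and 13.5 CPM in RA replicate 12. Muscle markers reached 780 CPM in RA replicate 6 and 346 CPM in DMSO replicate 4. Without RA replicate 9 the called factors were tbx20, tbx2a, tbx3a and phox2a; without RA replicate 6 they were tbx20 and tbx3a. The part of these cells in the factors' lower levels was not tested.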

How the data were processed

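The deposited tables hold whole-number fragment counts by gene. Per the file headers, featureCounts 1.6.0 made these counts from paired ends without regard to strand, on the Ensembl release 95 annotation of GRCz11; fragments that overlap several genes are left out by default. The submitters' processing notes name STAR 2.5.2a, bcl2fastq 1.8.4 and Subread 1.5.0. The deposited exon length per gene, in bases, was used for CPM per kilobase. Symbols for 29201 of 32520 identifiers came from a name table and, for names alone, RefSeq (GRCz12tu).

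Tests used edgeR 4.0.16 in R 4.3.3: filterByExpr, TMM scaling, the quasi-likelihood test, and Benjamini-Hochberg adjustment over 17270 tested genes with a threshold of 0.05. The script was tested on simulated data. Standard errors are log2 fold changes over the root of the F statistic. CPM use TMM-scaled library totals. The common biological coefficient of variation was 0.315. Libraries of a group differed by more than counting error (chi-square per degree of freedom 15.9 to 71.2), so each counted as 1 replicate; libraries held no molecular identifiers. Alternatives used other scalings, filters, DESeq2 1.42.0 and limma 3.58.1.

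The 10 members and the gene lists were chosen with earlier results of these data known. All 10 members are named. List genes are named where they passed the threshold, and otherwise at most the 4 of highest mean CPM per list. For likeness, genes of the kinds given above, such as those with clone names, were skipped, and then the 5 highest r are named. Outside this rule, chosen with their values known, are isl1b, lhx3, lmo4a, tbx21, the heart genes other than hand2 and gata5, and nefmb and the other genes most like tbx3a. Of 175 list entries, 169 matched a gene.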

Additional observations from a re-analysis of the deposited data

How the results depend on the processing

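Tbx20 passed the threshold in each of the 17 alternatives to the edgeR fit (adjusted p = 3.83e-24 to 0.0427). The number of the 10 factors called was 3, and 6 with DESeq2, which added phox2a, phox2bb and isl1a. It was 4 without a filter or with limma-voom quality weights, both adding phox2a, and 2 with paralog pairs summed (tbx20, tbx3a) or cholinergic scaling (tbx20, tbx2a). With pairs summed, tbx2a was added to tbx2b and not tested alone. The summed tbx2 pair did not pass (log2 fold change -0.27, edgeR adjusted p = 0.677). The number called was 1 to 4 when 1 library was left out, and 1 (tbx20) without DMSO replicate 1, 4 or 10. All tested genes gave 138 calls, 671 with DESeq2, 276 without a filter, 394 with limma-voom quality weights, and 9 to 325 when 1 library was left out; a fit on 5 libraries has fewer samples. Directions reversed for phox2ba (log2 fold change 0.13 with quality weights, 0.39 without DMSO replicate 4, 0.20 without RA replicate 9, 0.25 without RA replicate 12) and isl2a (0.055 with quality weights, 0.10 without DMSO replicate 1); without 1 library they ranged from -0.86 to 0.39 and from -0.27 to 0.10. Log2 ratios reversed with phox2bb as denominator for tbx2b (0.29), phox2ba (0.36) and isl2a (0.43). Those to cholinergic counts reversed for phox2ba (0.24 without DMSO replicate 4, 0.35 without RA replicate 12) and isl2a (9.79e-05 with chata alone, 0.033 without DMSO replicate 10), with leave-one-out ranges of -0.77 to 0.35 and -0.27 to 0.033. Without RA replicate 6, the change of phox2ba minus that of phox2bb turned to -0.46 (range over such fits -0.46 to 1.01), and that of isl2b minus isl1a to -0.069 (range -0.069 to 0.33). The cause of these shifts was not tested. The scaling by cholinergic counts and the differences between genes were added after seeing the data. No paired analysis was possible because the groups share no replicate number. Phox2ba and isl2b rest on 165 to 654 counts per library, and the exact ratio tests on 3 against 3 libraries cannot go below p = 0.1.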
